A study of Mus musculus with 12 samples.

Results

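The genes described here are 9 that set and read out the macrophage lineage: the transcription factor genes Spi1, Cebpa, Cebpb, Cebpd, Maf, Runx1, Klf2 and Klf4, and Csf1r, the receptor for macrophage colony-stimulating factor. They were taken by gene symbol, and all 9 were found in the table of unstimulated cells (17544 genes) and in the table of lipopolysaccharide (LPS)-stimulated cells (17874 genes). RNA-seq was carried out on J774A.1 cells, a mouse macrophage line, in 4 groups of 3 libraries: wild-type (WT) and ACAT1 knockout (ACAT1 KO) cells, each unstimulated or given LPS at 100 ng/ml for 2 hr. ACAT1 KO cells received Cas9 with a guide to Acat1, the gene of a mitochondrial acetyl-CoA acetyltransferase, and WT cells received the same Cas9 vector with no guide, so transfection, sorting on GFP and outgrowth as clonal populations were common to both genotypes. One legend of the study describes the replicates as 3 lines per genotype and another as mice, so p-values measure the spread between these libraries, and beyond the number of clones a difference between clones and one between genotypes cannot be told apart. The questions addressed were how these genes differed between WT and ACAT1 KO cells in each state and how they changed with LPS in each genotype.

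As background, PU.1, the ETS-family protein encoded by Spi1, opens enhancers across the macrophage genome and acts with C/EBP proteins and RUNX1 on the regulatory regions of Csf1r. C/EBPα acts early in commitment to the myeloid lineages, whereas C/EBPβ and C/EBPδ rise during inflammatory responses. MAF restrains self-renewal of mature macrophages. KLF2 and KLF4 are zinc-finger proteins; KLF2 is known to limit NF-κB-driven inflammatory transcription in myeloid cells, and KLF4 takes part in monocyte differentiation. LPS signals through TLR4.

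Total counts were between 56948593 and 167280149 per library. The targeted gene was lower in the ACAT1 KO libraries: Acat1 was 108, 107 and 80.8 CPM (counts scaled to the same library total) in unstimulated WT, 28.9, 25.5 and 26.1 CPM in unstimulated ACAT1 KO, 85.4, 95.4 and 65.0 CPM in WT after LPS and 19.9, 18.5 and 18.9 CPM in ACAT1 KO after LPS. All 9 macrophage markers checked, Csf1r among them, were measured, with summed levels of 8598 to 13151 CPM. Lyz2 alone made up 4558 to 8234 CPM. Of 5 T cell markers 2 were measured, summing to at most 9.98 CPM. The highest sums were 0.836 CPM for B cell, 5.73 CPM for neutrophil, 0.525 CPM for erythroid and 2.43 CPM for endothelial markers. No epithelial marker was measured. The 1 measured fibroblast marker of 5 summed to 4.93 to 5.80 CPM in WT and 10.2 to 11.8 CPM in ACAT1 KO after LPS. The 3 unstimulated libraries with the lowest totals (WT replicates 1 and 2 and ACAT1 KO replicate 2) had 0.107% to 0.129% of counts in noncoding genes that lie opposite another gene, against 0.0702% to 0.0937% in the other 9 libraries. The unstimulated genotype difference within and outside these 3 is therefore given for each gene below. Each such value rests on 1 library of 1 genotype, ACAT1 KO replicate 2 within these 3 and WT replicate 3 outside them, so its spread is not known. No label says which libraries share a line across states. In deviations from group means, same-numbered libraries of 1 genotype correlated across states at 0.353 to 0.597. They are therefore taken as the same line. Same-numbered WT and ACAT1 KO libraries of 1 state, which are different lines, reached 0.548, so a shared line and another link by number cannot be told apart. Below, a line means a same-numbered pair of 1 genotype. In bulk RNA, a change in the share of cells that express a gene and a change in its RNA per cell cannot be told apart.

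Promoter sequences are shown for 3 of the genes that moved with LPS, Klf2 and Klf4, which fell, and Cebpb, which rose. They run from 250 bases before to 50 bases after the annotated start (RefSeq, GRCm38.p6, gene strand, 5′ to 3′). Capitals mark TGACGC, a variant of the cyclic AMP response element core, on either strand in each sequence, and in Klf2 also a loose MEF2 motif.
Klf2 (chr8:72318812-72319111, plus strand): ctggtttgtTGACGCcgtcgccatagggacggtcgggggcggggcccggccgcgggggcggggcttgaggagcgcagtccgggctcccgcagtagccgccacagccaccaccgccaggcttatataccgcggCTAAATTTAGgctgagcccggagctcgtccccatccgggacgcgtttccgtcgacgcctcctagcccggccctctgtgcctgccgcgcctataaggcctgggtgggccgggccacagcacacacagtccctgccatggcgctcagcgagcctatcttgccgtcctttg
Klf4 (chr4:55532426-55532725, minus strand): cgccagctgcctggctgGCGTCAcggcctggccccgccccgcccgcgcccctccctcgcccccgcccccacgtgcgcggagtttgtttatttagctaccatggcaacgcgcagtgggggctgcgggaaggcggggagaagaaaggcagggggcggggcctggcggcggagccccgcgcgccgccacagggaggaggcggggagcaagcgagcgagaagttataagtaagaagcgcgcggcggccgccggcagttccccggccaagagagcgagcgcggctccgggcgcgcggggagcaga
Cebpb (chr2:167688665-167688964, plus strand): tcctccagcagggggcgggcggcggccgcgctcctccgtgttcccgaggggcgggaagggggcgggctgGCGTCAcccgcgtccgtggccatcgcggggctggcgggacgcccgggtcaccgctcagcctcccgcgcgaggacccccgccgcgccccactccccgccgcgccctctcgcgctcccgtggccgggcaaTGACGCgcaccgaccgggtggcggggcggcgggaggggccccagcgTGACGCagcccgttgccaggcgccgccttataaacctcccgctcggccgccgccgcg

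The Cebpb window held TGACGC at 3 places, and the Klf2 and Klf4 windows at 1 place each; 7.39% of the 32817 mouse promoters of this length held it at least once. The Klf2 window held 1 match to the MEF2 motif, 118 bases before the start, and 3.69% of promoters held one. These 2 motifs were picked for display after their matches were seen. The others searched on both strands were the TATA box as TATAAA, held by 13.6% of promoters, the GC box as GGGCGG, held by 35.6%, the full cyclic AMP element core as TGACGT, held by 7.51%, and a loose NF-κB motif, held by 50.8%. A PU.1 core was searched as GAGGAA, held by 28.3%, a C/EBP site as TTGCNNCAA, held by 2.08%, a RUNX core as TGTGGT, held by 16.8%, and a KLF core as CACCC, held by 57.5%; matches to the GC box, the KLF core and the NF-κB motif can share bases. Promoters were matched for 5 of the 9 genes, the other 2 being Cebpa and Runx1. Spi1, Cebpd, Maf and Csf1r were not shown here. Promoters on chromosome 18, where Csf1r lies, were left out of this matching.

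The largest changes among the 9 genes came with LPS. Klf2, Klf4 and Maf fell in both genotypes, and Spi1, Cebpb and Cebpd rose in both. Cebpa was lower after LPS in both but passed only in WT, and Runx1 and Csf1r passed in neither. With edgeR's quasi-likelihood test and Benjamini-Hochberg adjustment over all genes, 7 of 9 passed an adjusted p of 0.05 in WT (3 higher, 4 lower), where 57.4% of all tested genes did (29.3% higher, 28% lower), and 6 of 9 in ACAT1 KO (3 higher, 3 lower), where 60.7% did (29.5% higher, 31.2% lower). Between the genotypes, 0 of 9 passed in unstimulated cells, where 1.91% of all genes did. Without adjustment, the study's own threshold, 4 of 9 had p under 0.05 (Spi1 and Cebpd higher, Cebpa and Klf2 lower), as did 19.7% of all genes. After LPS, 2 of 9 passed with adjustment, Spi1 higher and Klf2 lower in ACAT1 KO (15.1% of all genes, 5.93% higher and 9.12% lower). Without adjustment 6 of 9 had p under 0.05, adding Cebpb, higher, and Cebpa, Klf4 and Runx1, lower (31.3% of all genes). The 2 genotypes' libraries did not overlap for 5 of 9 genes in each state, against 25.8% of all genes unstimulated and 37.6% after LPS. These counts use CPM scaled within the state; on the scale of the CPM printed here, Csf1r unstimulated and Cebpd after LPS overlapped. Before and after LPS, libraries did not overlap for 5 of 9 genes in WT (61% of all genes) and 7 of 9 in ACAT1 KO (67.8% of all genes).

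**Figure D1:**
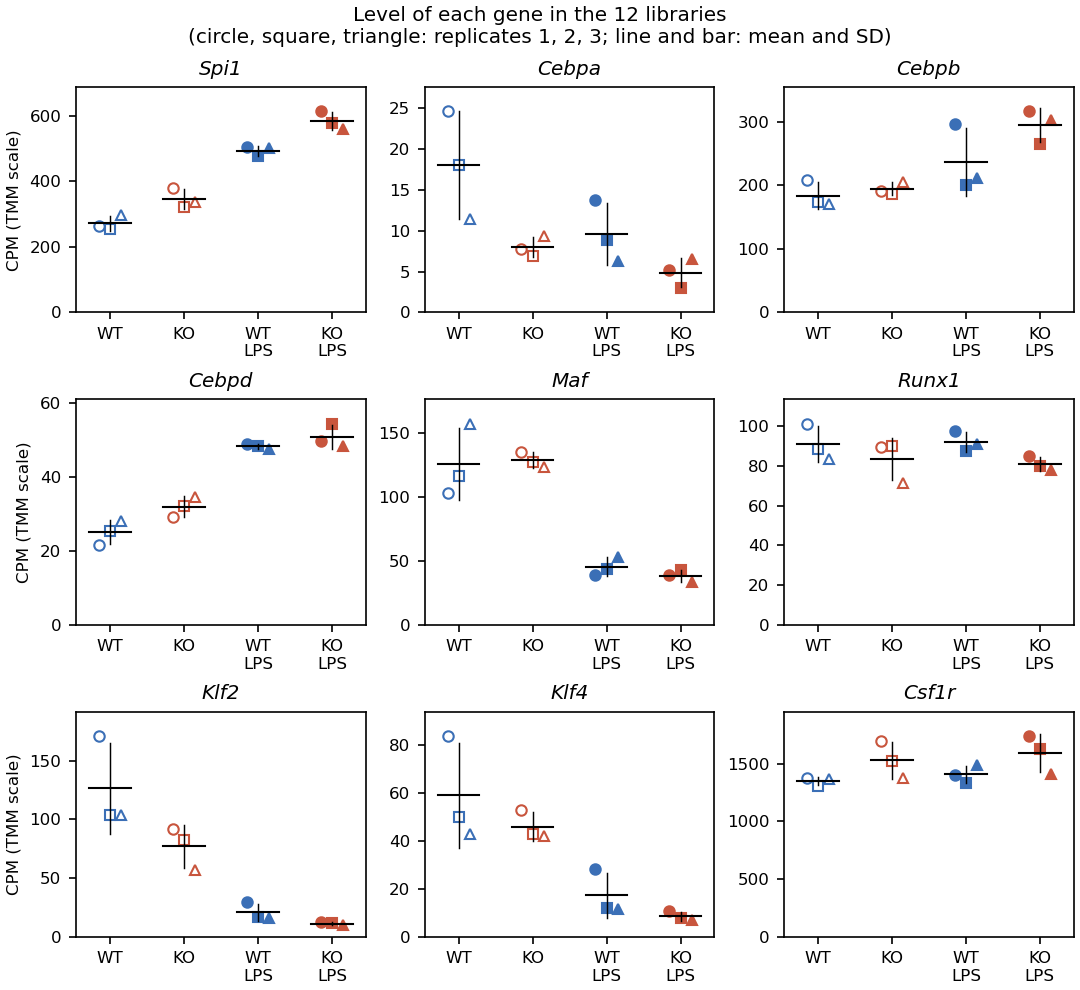
Level of each of the 9 genes in CPM (y axes from 0, TMM scale over the 12 libraries) in WT and ACAT1 KO (KO) cells, unstimulated (open symbols) and after LPS (filled symbols). Circles, squares and triangles are replicates 1, 2 and 3, and lines and bars are the mean and SD (n = 3); Klf2, Klf4 and Maf sit lower after LPS, Spi1 and Cebpd higher, and WT replicate 1 is the highest WT library for Klf2, Klf4, Cebpa and Cebpb in both states.

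Levels compared between genes are in CPM per kb of exon. Csf1r was the highest of the 9 in every group, at 234 ± 6.52 CPM per kb (SD, n = 3) in unstimulated WT and 276 ± 29.1 CPM per kb (SD, n = 3) in ACAT1 KO after LPS. Cebpb at 122 ± 13.8 and Spi1 at 101 ± 8.13 CPM per kb (SD, n = 3) followed in unstimulated WT, and Spi1 at 183 ± 5.64 stood above Cebpb at 157 ± 35.1 CPM per kb (SD, n = 3) in WT after LPS. Klf2 went from the fourth place in both unstimulated groups, at 68.3 ± 21.1 CPM per kb (SD, n = 3) in WT, to 11.2 ± 4.10 CPM per kb (SD, n = 3) in WT after LPS. Cebpa was the lowest in every group but unstimulated WT, where Cebpd at 6.68 ± 0.880 CPM per kb lay just under Cebpa at 6.82 ± 2.50 CPM per kb (SD, n = 3), a gap smaller than either spread.

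Csf1r (ENSMUSG00000024621, GRCm38 chr18:61100598-61132149, plus strand) encodes the receptor tyrosine kinase on whose signal macrophages depend for survival and growth. Its level was 1380, 1308 and 1364 CPM in unstimulated WT and 1695, 1521 and 1374 CPM in unstimulated ACAT1 KO. After LPS it was 1400, 1334 and 1485 CPM in WT and 1743, 1625 and 1411 CPM in ACAT1 KO. ACAT1 KO replicate 1 was the highest of its group in both states and ACAT1 KO replicate 3 the lowest, and in each of the 4 comparisons the groups overlapped on this scale. Scaled over the 6 unstimulated libraries alone, the genotypes in that state were apart. The log2 fold change of ACAT1 KO over WT was 0.19 (SE 0.0906, adjusted p = 0.308) unstimulated and 0.20 (SE 0.0875, adjusted p = 0.162) after LPS. The unstimulated difference of mean log2 CPM was 0.18 within the 3 libraries of lowest total and 0.16 within the other 3. With LPS it was 0.06 (SE 0.0919, adjusted p = 0.619) in WT and 0.06 (SE 0.0919, adjusted p = 0.603) in ACAT1 KO, and upper-quartile scaling, which lowered the median of all genes in these comparisons, turned both below 0. Hmgxb3 lies on the other strand over 873 of the 5774 exon bases, at 24.8 to 56.0 CPM. The nearest patterns over the 12 libraries among 8738 genes were those of Wls and Acer3, with root mean square differences of 0.0738 and 0.0754 on centred log2 CPM.

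Spi1 (ENSMUSG00000002111, chr2:91082390-91115756, plus strand) had 4 groups that were all separate, as did Klf2. It measured 265, 254 and 296 CPM in unstimulated WT, 380.1, 322 and 336 CPM in unstimulated ACAT1 KO, 505, 477 and 501 CPM in WT after LPS, and 614, 579.6 and 559.8 CPM in ACAT1 KO after LPS. Every ACAT1 KO library lay above every WT library of its state, and every library after LPS above every unstimulated one. Spi1 rose with LPS by a log2 fold change of 0.86 (SE 0.0785, adjusted p = 1.72e-06) in WT and 0.76 (SE 0.0783, adjusted p = 4.67e-06) in ACAT1 KO.

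The genotype difference of Spi1 was 0.36 in log2 (1.28-fold, SE 0.0907, adjusted p = 0.100) unstimulated and 0.26 (1.20-fold, SE 0.0585, adjusted p = 0.0240) after LPS. In unstimulated cells the difference of mean log2 CPM was 0.31 within the 3 libraries of lowest total and 0.27 within the other 3. The call after LPS was lost without LPS WT replicate 2 (adjusted p = 0.0773) or LPS ACAT1 KO replicate 1 (0.0847), 2 (0.0768) or 3 (0.0512), and in a fit of all 12 libraries (0.0640). Unstimulated, Spi1 passed with DESeq2 (adjusted p = 0.00405) and in the fit of all 12 libraries (0.0207). The genes with the most similar pattern were Eif3j2 and Tspyl1, with root mean square differences of 0.0605 and 0.0647.

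The 3 C/EBP genes differed from each other. Cebpa (ENSMUSG00000034957, chr7:35119293-35121928, plus strand) measured 24.6, 18.0 and 11.4 CPM in unstimulated WT, 7.75, 6.89 and 9.38 CPM in unstimulated ACAT1 KO, 13.7, 8.82 and 6.25 CPM in WT after LPS, and 5.17, 2.96 and 6.49 CPM in ACAT1 KO after LPS. The genotypes did not overlap before LPS and did after it, and WT replicate 1 was more than 2 times as high as WT replicate 3 in both states. The log2 fold change of ACAT1 KO over WT was -1.16 (SE 0.274, adjusted p = 0.0884) unstimulated and -0.95 (SE 0.337, adjusted p = 0.0956) after LPS. It was -1.61 within the 3 unstimulated libraries of lowest total and -0.41 within the other 3, as a difference of mean log2 CPM, and the adjusted p was 1.13e-04 with DESeq2 and 0.0298 without WT replicate 3. Without replicate 1 of WT the fold change was -0.88 unstimulated and -0.61 after LPS.

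With LPS, Cebpa fell in WT by 0.91 in log2 (SE 0.345, adjusted p = 0.0406), and in ACAT1 KO the value was -0.72 (SE 0.348, adjusted p = 0.0933). Libraries before and after LPS overlapped in WT and were apart in ACAT1 KO. The interaction was 0.19 (SE 0.487, adjusted p = 0.977), and upper-quartile scaling gave -0.86 in ACAT1 KO (adjusted p = 0.0499). All 6 lines were lower after LPS, with changes of -1.03 to -0.84 in WT and -1.21 to -0.53 in ACAT1 KO, and a fit with the line as a block called both, with -0.77 in ACAT1 KO (adjusted p = 7.14e-04). That block with length and GC offsets gave -0.61 in WT (adjusted p = 0.00279) and -0.41 in ACAT1 KO (adjusted p = 0.0215). Length and GC offsets alone gave -0.59 in WT and -0.35 in ACAT1 KO, and without LPS ACAT1 KO replicate 2 the ACAT1 KO value was -0.46. The call in WT was lost with length and GC offsets (adjusted p = 0.164), with the term for the 3 libraries of lowest total (0.214), and without WT replicate 1 (0.156) or 2 (0.0756), LPS WT replicate 2 (0.106) or 3 (0.144), or LPS ACAT1 KO replicate 1 (0.0529). Fosl2 and Mindy1 had the nearest patterns, at 0.310 and 0.363.

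Cebpb (ENSMUSG00000056501, chr2:167688915-167690418, plus strand), whose promoter is printed above, measured 208, 174 and 170.3 CPM in unstimulated WT and 191, 187 and 206 CPM in unstimulated ACAT1 KO. After LPS it measured 297, 200.4 and 212 CPM in WT and 316, 265 and 304 CPM in ACAT1 KO. LPS WT replicate 1 lay with the ACAT1 KO libraries, and the other 2 LPS WT libraries below all 3 of them. Cebpb rose with LPS by 0.36 in log2 in WT (SE 0.137, adjusted p = 0.0389) and 0.60 in ACAT1 KO (SE 0.137, adjusted p = 0.00243). Length and GC offsets alone gave 0.91 in WT, and with the block as well the values were 0.89 in WT (adjusted p = 4.02e-04) and 1.11 in ACAT1 KO (adjusted p = 1.06e-04). The value in WT was 0.15 with upper-quartile scaling and 0.17 without LPS WT replicate 1. The call in WT was lost with upper-quartile scaling (adjusted p = 0.354), with the term for the 3 libraries of lowest total (0.0761), and without WT replicate 2 (0.110) or 3 (0.115), LPS WT replicate 1 (0.194) or LPS ACAT1 KO replicate 3 (0.0505). The genotype value was 0.09 (SE 0.0923, adjusted p = 0.658) unstimulated and 0.34 (SE 0.146, adjusted p = 0.156) after LPS, and 0.53 (adjusted p = 0.00923) without LPS WT replicate 1. Unstimulated, the difference of mean log2 CPM was -0.03 within the 3 libraries of lowest total and 0.22 within the other 3. Tmem189, on the other strand over 312 of the 1504 exon bases, measured 69.0 to 189.7 CPM and was lower in both genotypes after LPS, at 129 ± 5.56 and 75.1 ± 6.84 CPM (SD, n = 3) in WT; its part in the Cebpb counts was not tested. Slc48a1 and Zgpat had the nearest patterns, at 0.123 and 0.130.

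Cebpd (ENSMUSG00000071637, chr16:15887286-15891031, plus strand) measured 21.5, 25.4 and 28.1 CPM in unstimulated WT, 29.1, 32.2 and 34.5 CPM in unstimulated ACAT1 KO, 48.9, 48.4 and 47.6 CPM in WT after LPS, and 49.6, 54.4 and 48.4 CPM in ACAT1 KO after LPS. The unstimulated genotypes were just apart, and after LPS all 6 libraries lay within 47.6 to 54.4 CPM. Cebpd rose with LPS by 0.95 in log2 in WT (SE 0.0949, adjusted p = 3.97e-06) and 0.67 in ACAT1 KO (SE 0.0941, adjusted p = 6.25e-05). The genotype value was 0.36 (SE 0.115, adjusted p = 0.156) unstimulated, 0.46 within the 3 libraries of lowest total and 0.17 within the other 3, and 0.09 (SE 0.0603, adjusted p = 0.3298) after LPS. Unstimulated, it passed with DESeq2 (adjusted p = 0.0348) and in the fit of all 12 libraries (0.0427). Spidr, on the other strand over 562 of the 3746 exon bases, measured 21.0 to 36.2 CPM. Pak4 and Celf1 had the nearest patterns, at 0.0921 and 0.0933.

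Klf2 (ENSMUSG00000055148, chr8:72319033-72321656, plus strand) fell the most with LPS of the 9 genes and kept its 4 groups apart. It measured 171, 104 and 104 CPM in unstimulated WT, 92.1, 82.4 and 56.7 CPM in unstimulated ACAT1 KO, 29.4, 16.9 and 15.8 CPM in WT after LPS, and 12.4, 11.3 and 10.1 CPM in ACAT1 KO after LPS. Within each state the ACAT1 KO libraries were all lower than the WT ones, and WT replicate 1 stood above the other 2 WT libraries in both states. With LPS the log2 fold change of Klf2 was -2.61 in WT (SE 0.278, adjusted p = 6.72e-06), to 0.164 of the unstimulated level, and -2.77 in ACAT1 KO (SE 0.282, adjusted p = 4.03e-06), to 0.146 of it. Line by line, the change was -2.71 to -2.54 in WT and -2.89 to -2.48 in ACAT1 KO.

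The genotype difference of Klf2 was -0.70 in log2 (0.615-fold, SE 0.251, adjusted p = 0.193) unstimulated and -0.85 (0.554-fold, SE 0.223, adjusted p = 0.0390) after LPS. Within the 3 unstimulated libraries of lowest total it was -0.69 as a difference of mean log2 CPM, and within the other 3 it was -0.52. Without replicate 1 of WT it was -0.43 unstimulated and -0.51 after LPS, the smallest values when 1 library was left out. The call after LPS was lost without LPS WT replicate 2 (adjusted p = 0.0549) or LPS ACAT1 KO replicate 1 (0.0844), 2 (0.114) or 3 (0.118), with limma-voom (0.0567) and in the fit of all 12 libraries (0.0554). The nearest patterns to Klf2 were those of Dusp1, a MAP kinase phosphatase gene, and Klf10, both at 0.306, and Klf4 was at 0.351.

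Klf4 (ENSMUSG00000003032, chr4:55527143-55532466, minus strand) measured 83.9, 50.1 and 43.1 CPM in unstimulated WT and 52.9, 42.8 and 42.2 CPM in unstimulated ACAT1 KO. After LPS it measured 28.2, 11.9 and 11.8 CPM in WT and 10.6, 7.84 and 7.07 CPM in ACAT1 KO. The genotypes overlapped before LPS and were apart after it, with LPS WT replicate 1 more than 2 times as high as the other 2 LPS WT libraries. Klf4 had a log2 fold change with LPS of -1.78 in WT (SE 0.343, adjusted p = 7.91e-04) and -2.44 in ACAT1 KO (SE 0.353, adjusted p = 8.00e-05). Line by line, the ranges were -2.08 to -1.57 in WT and -2.57 to -2.32 in ACAT1 KO. The genotype value was -0.35 (SE 0.245, adjusted p = 0.490) unstimulated and -0.9995 (SE 0.339, adjusted p = 0.0849) after LPS. Without replicate 1 of WT these were -0.02 and -0.46. Within the 3 unstimulated libraries of lowest total the difference of mean log2 CPM was -0.60, and within the other 3 it was 0.13. Klf10 and Tfeb had the nearest patterns, at 0.261 and 0.328.

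Maf (ENSMUSG00000055435, chr8:115682942-115707794, minus strand) measured 103, 116 and 157 CPM in unstimulated WT, 135, 127 and 123 CPM in unstimulated ACAT1 KO, 38.9, 43.5 and 53.1 CPM in WT after LPS, and 38.9, 42.5 and 33.0 CPM in ACAT1 KO after LPS. The 2 states were well apart and the genotypes overlapped in both. The log2 fold change of Maf with LPS was -1.47 in WT (SE 0.157, adjusted p = 6.75e-06) and -1.75 in ACAT1 KO (SE 0.158, adjusted p = 1.43e-06). The lines ranged from -1.56 to -1.40 in WT and from -1.90 to -1.58 in ACAT1 KO. The genotype value was 0.04 (SE 0.152, adjusted p = 0.913) unstimulated and -0.22 (SE 0.128, adjusted p = 0.274) after LPS. Its unstimulated difference of mean log2 CPM was 0.22 within the 3 libraries of lowest total and -0.28 within the other 3, opposite in sign. Zmym6 and Kmt5c had the nearest patterns, at 0.142 and 0.167.

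Runx1 (ENSMUSG00000022952, chr16:92601466-92826149, minus strand) encodes a partner of PU.1 and varied least of the 8 transcription factor genes. It measured 101, 88.7 and 83.5 CPM in unstimulated WT, 89.6, 90.1 and 71.4 CPM in unstimulated ACAT1 KO, 97.8, 87.4 and 91.2 CPM in WT after LPS, and 84.9, 80.2 and 77.7 CPM in ACAT1 KO after LPS. Neighbouring groups in the order of the means overlapped throughout. With LPS the log2 fold change was 0.02 (SE 0.0970, adjusted p = 0.907) in WT, which upper-quartile scaling turned below 0, and -0.05 (SE 0.0969, adjusted p = 0.687) in ACAT1 KO. The genotype value was -0.11 (SE 0.115, adjusted p = 0.654) unstimulated and -0.17 (SE 0.0619, adjusted p = 0.110) after LPS, where the genotypes did not overlap. Within the 3 unstimulated libraries of lowest total it was -0.07 as a difference of mean log2 CPM, and -0.06 within the other 3. Nr1d2 and Dap had the nearest patterns, at 0.0837 and 0.0880.

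**Figure D2:**
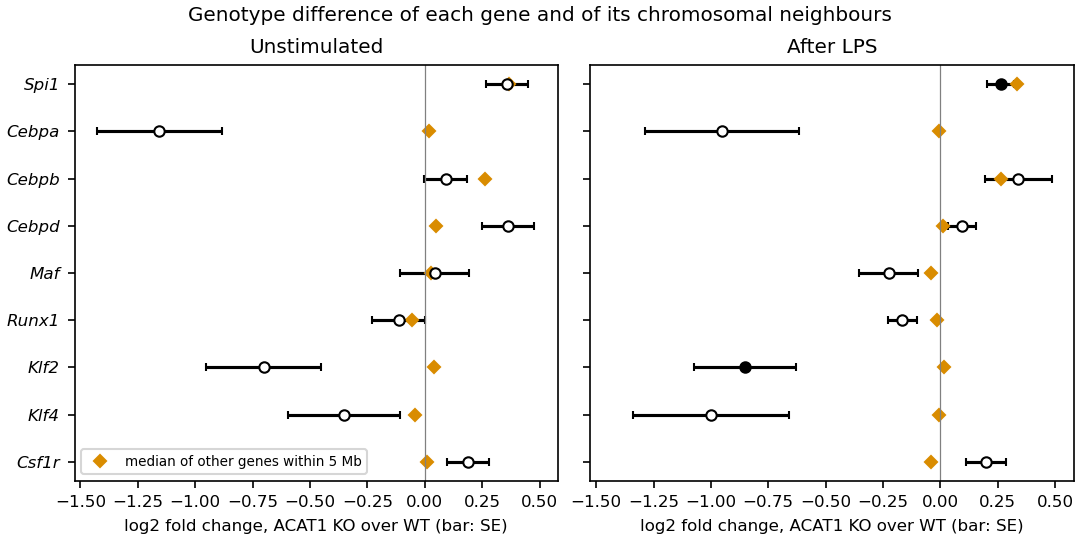
Log2 fold change of ACAT1 KO over WT (x axis, bars are the SE) for each gene, unstimulated and after LPS; filled circles passed an adjusted p of 0.05. Orange diamonds are the median log2 fold change of the other tested genes within 5 Mb, which lies near Spi1's own value and near 0 for Cebpa, Klf2 and Klf4.

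Spi1 and Cebpb lie far apart on chromosome 2, and within 5 Mb of each most other tested genes had a log2 fold change above 0 in ACAT1 KO over WT; the stretch between was not examined. Within 5 Mb of Spi1, the other tested genes had a median log2 fold change of 0.37 unstimulated (47 of 56 above 0, 12 higher and 0 lower with adjustment) and 0.33 after LPS (49 of 61 above 0, 23 higher and 0 lower). Spi1 itself was 0.008 below that median unstimulated and 0.07 below it after LPS. Within 5 Mb of Cebpb the medians were 0.26 over 103 genes and 0.26 over 97 genes, with 31 higher and 2 lower after LPS, and Cebpb was 0.17 below the median unstimulated and 0.07 above it after LPS. The part of these shifts in the values of Spi1 and Cebpb was not tested. Neighbours were read because genes of distal chromosome 2 were among those taken beforehand to be shifted in these lines. For the other 7 genes the neighbours' medians lay between -0.05 and 0.05 in both states. Cebpa lay below 85 of 86 neighbours unstimulated and all 88 after LPS, Klf2 below 131 of 139 and 134 of 140, and Klf4 below 33 of 38 and 37 of 39.

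**Figure D3:**
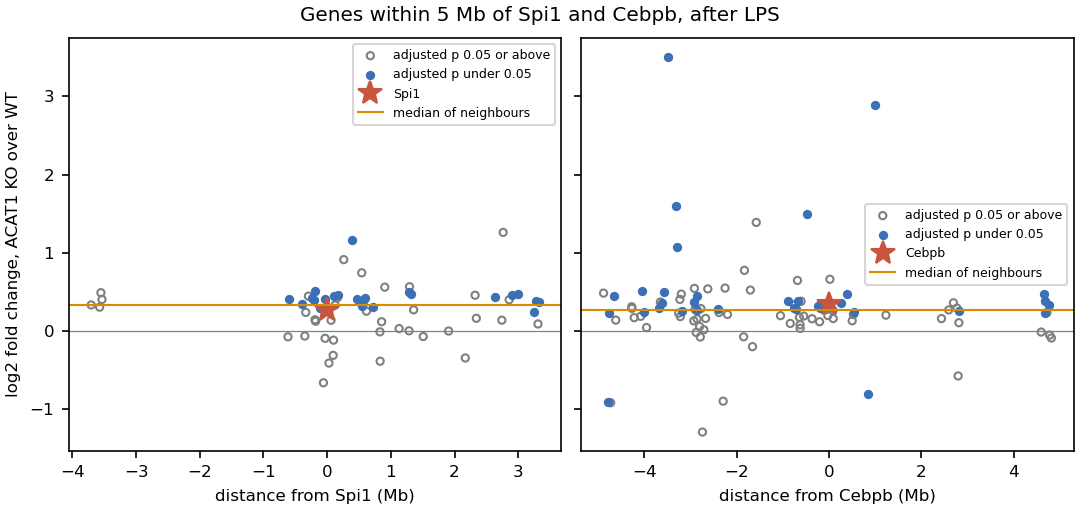
Log2 fold change of ACAT1 KO over WT after LPS (y axis) for tested genes within 5 Mb of Spi1 (left) and Cebpb (right) by distance in Mb (x axis). Stars are Spi1 and Cebpb, filled circles passed an adjusted p of 0.05, and the orange lines are the neighbours' medians, 0.33 and 0.26.

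Whether LPS acted differently in the 2 genotypes was tested by the interaction. None of the 9 genes passed with edgeR, with adjustment (0.187% of all genes did) or at an unadjusted p under 0.05 (8.92% of all genes). DESeq2 called 0 of the 9 with adjustment and 0 without, against 334 and 1382 of 16503 genes. The values ran from -0.66 (SE 0.475, adjusted p = 0.801) for Klf4 to 0.24 (SE 0.193, adjusted p = 0.839) for Cebpb, and Cebpd had the smallest p, at -0.28 (SE 0.133, adjusted p = 0.587). With the line as a block, 288 genes in place of 31 passed with adjustment, still 0 of the 9. At that block 4 of the 9 had an unadjusted p under 0.05, as did 2311 of the 16535 genes tested. The 4 were Klf4 at -0.61 (adjusted p = 0.0681), Maf at -0.29 (adjusted p = 0.196), Cebpb at 0.25 (adjusted p = 0.308) and Cebpd at -0.28 (adjusted p = 0.354). The states were deposited as separate tables, and LPS and any other difference between the 2 sets of libraries cannot be told apart.

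**Figure D4:**
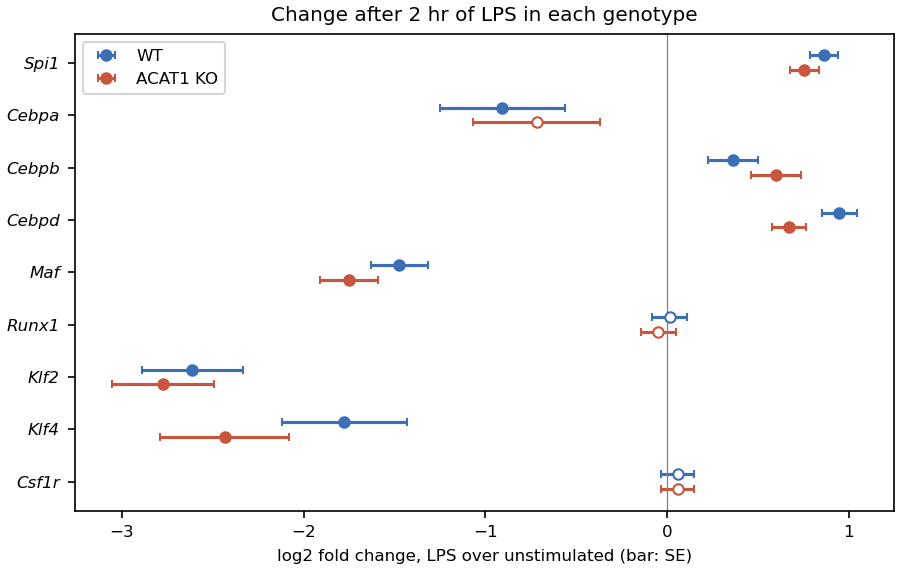
Log2 fold change with LPS (x axis, bars are the SE) in WT (blue) and ACAT1 KO (red) for each gene; filled circles passed an adjusted p of 0.05. Klf2, Klf4 and Maf lie far to the left, Spi1, Cebpb and Cebpd to the right, and Runx1 and Csf1r at 0.

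Other genes of the same pathways were read from 3 lists. Of all genes tested, 1.91% passed between the genotypes unstimulated and 15.1% after LPS. With LPS 57.4% passed in WT and 60.7% in ACAT1 KO. Of 25 genes for CSF1R ligands, related receptors and signalling, 21 were tested unstimulated and 0 passed between the genotypes (median log2 fold change -0.02, against 0.00 over all genes). After LPS, 4 were higher and 3 lower of 23 (median 0.00, against 0.00 over all genes). Among these were the receptor genes Kit at 1.18, Pdgfrb at 0.90 and Csf3r at 0.57 in log2, and, lower, Inpp5d at -0.52, which encodes the phosphatase SHIP1, and Pik3cg at -0.43. Pik3cg lies on chromosome 12, whose genes were taken beforehand to be shifted in these lines. That shift was not examined here, and its part in the value of Pik3cg was not tested. The calls of Kit, Pdgfrb, Pik3cg and Csf3r held in 5, 3, 3 and 1 of the 6 fits with 1 library removed. Kit and Pdgfrb were outside the fit of all 12 libraries, so no level is given for them here. With LPS 8 rose and 8 fell of 21 in WT, and 6 rose and 8 fell in ACAT1 KO. Csf1, the gene of the main CSF1R ligand, rose from 51.8 ± 13.3 to 1099 ± 44.3 CPM (SD, n = 3) in WT and from 32.8 ± 6.76 to 1131 ± 68.6 CPM (SD, n = 3) in ACAT1 KO, log2 fold changes of 4.41 and 5.11, while Csf1r passed in neither genotype.

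Of 36 myeloid transcription factor genes outside the 9, 33 were tested unstimulated (median -0.08). Irf8, which directs monocyte and dendritic cell fate, was higher in ACAT1 KO at 0.55, and Runx2 at -1.39 and Bhlhe40 at -1.67 were lower. Each of these 3 calls held only in the fit without WT replicate 3 of the 6 that left out 1 library, with an adjusted p of up to 0.171. After LPS, 6 were higher and 7 lower of 34 (38.2%, against 15.1% of all genes, median -0.14). They were led by Klf13 at -0.99, Myc at -0.52, Tfec at 1.36, Egr2 at -1.14 and Irf8 at -0.65. Irf8 lost its call without LPS ACAT1 KO replicate 2. With LPS 13 rose and 10 fell of 33 in WT, and 12 rose and 11 fell in ACAT1 KO. That was 69.7% of the list in each genotype, against 57.4% and 60.7% of all genes. Mitf rose by 1.77 and 2.36 in log2 and Zeb2 by 1.92 and 1.96 in WT and ACAT1 KO, and Klf13, of the same zinc-finger family as Klf2 and Klf4, had -1.54 and -2.37.

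Of 30 macrophage identity genes, 29 were tested. Unstimulated, Cybb, the catalytic subunit gene of the phagocyte oxidase, was higher in ACAT1 KO at 0.75, and Fcgr1 at -0.69 and Adgre1, which encodes F4/80, at -0.78 were lower (median 0.13). Cybb and Adgre1 passed only without WT replicate 3 of the 6 fits that left out 1 library, and Fcgr1 in 4 of 6. After LPS 6 were higher and 3 lower (31.0% of the 29, against 15.1% of all genes, median 0.13). They included Cybb at 0.87, Itgam at 0.48, Aif1 at 0.49 and Cd14, the LPS co-receptor gene, at 0.40, and Fcgr1 at -1.07. Fcgr1, Cybb and Cd14 passed in all 6 fits that left out 1 library, Itgam in 4 and Aif1 in 2. With LPS 7 rose and 7 fell in WT, and 8 rose and 7 fell in ACAT1 KO. These were 48.3% and 51.7% of the list, below the 57.4% and 60.7% of all genes. Tlr4, the LPS receptor gene, had -1.32 and -1.57 in WT and ACAT1 KO.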

How the data were processed

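Per the labels and the study's methods, the authors removed adapters with Trimmomatic 0.33, used HISAT2 against GRCm38 and quantified genes with StringTie. The library kit was directional, and whether counting used strand is not given in the sources used here. The deposited tables hold raw counts per gene (every gene with at least 4 counts in 5 of 6 libraries) and 12 log2 columns deposited by the authors, which were not used. Repeated rows (59 and 57) were removed. Genotypes were compared within each state, and LPS and the interaction over the genes of both tables, with edgeR 4.0.16 (R 4.3.3, TMM, filterByExpr, quasi-likelihood test); 16440, 16483 and 16535 genes were tested. Alternatives used DESeq2 1.42.0, limma 3.58.1, other scalings, no filter, length and GC offsets, a replicate block, and 1 library left out. Printed CPM use TMM over all 12 libraries, except the summed cell type markers, which were scaled within each state. Genes named were the 9 members, Acat1, up to 5 list genes per comparison with the smallest p, and the 2 genes closest in centred log2 CPM; Tmem189, Spidr and Hmgxb3 overlap a member. The study's threshold was p under 0.05. Deviations from group means correlated at 0.353 to 0.597 between same-numbered libraries of 1 genotype across states and -0.392 to -0.0444 between others. Such deviations cancel out within a group, so positive values for same-numbered pairs force negative ones on average for the others. The contrast of these ranges is therefore partly fixed in advance. The pairing of lines rests on these correlations and on no label. Members, lists and motifs were chosen with earlier results of these data known. Scripts were tested on simulated data.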

Additional observations from a re-analysis of the deposited data

Results flagged for a closer look

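None of the 9 genes had an LPS response that differed between the genotypes past the adjusted threshold, but 4 list genes did, each by the interaction in edgeR's quasi-likelihood test. Irf8 was 159.5 ± 4.86 CPM in WT and 233 ± 5.93 CPM in ACAT1 KO unstimulated, and 63.3 ± 6.87 and 39.7 ± 6.23 CPM after LPS (SD, n = 3), an interaction of -1.22 in log2 (SE 0.148, adjusted p = 0.0195), so that ACAT1 KO libraries were the higher ones before LPS and the lower ones after it. It was lost without WT replicate 2 (adjusted p = 0.0756), ACAT1 KO replicate 3 (0.0512), LPS WT replicate 2 (0.0593) or LPS ACAT1 KO replicate 2 (0.0774). Klf13 had -0.83 (SE 0.139, adjusted p = 0.0423) and passed in 2 of 12 fits that left out a library, Myc had -0.54 (SE 0.0914, adjusted p = 0.0463) and passed in 0 of 12, and Adgre1 had 0.83 (SE 0.138, adjusted p = 0.0423) and passed in 1 of 12.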

How the results depend on the processing

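Of the 9 genes between the genotypes unstimulated, 0 passed, as did 314 of all 16440 genes tested. With DESeq2 3 passed (1721 of 16404 genes) and in a fit of all 12 libraries 2 (1353 of 16535). With 1 library left out 0 to 1 passed (7 to 522 genes). After LPS 2 passed (2481 of 16483 genes). With limma-voom 1 passed (2403 of 16483) and with the replicate block 3 (2230 of 16483). With that block and length and GC offsets 4 passed (2029 of 16483). In the fit of all 12 libraries 0 passed (2177 of 16535), and with 1 library left out 0 to 3 (867 to 2245 genes). Counts with LPS and for the interaction stayed within 1.5 times of 7, 6 and 0. Values near 0 changed sign. Maf unstimulated was -0.024 with a term for the 3 libraries of lowest total and -0.092 to 0.241 with 1 library left out. Runx1 with LPS in WT was -0.194 with upper-quartile scaling, -0.186 with length and GC offsets, -0.181 with these and the block and -0.0447 to 0.0741 with 1 library left out; in ACAT1 KO it was 0.0121 with the term for lowest totals and -0.151 to 0.00841 with 1 left out. Csf1r with LPS was -0.151 in WT and -0.0916 in ACAT1 KO with upper-quartile scaling, and in ACAT1 KO -0.0135 to 0.139 with 1 left out. Its interaction was 0.0129 with relative log expression scaling and with DESeq2, 0.0590 with upper-quartile scaling, 0.00134 with limma-voom, 0.0789 with length and GC offsets, 0.000787 with the block, 0.0811 with both, 0.00564 with the term for lowest totals and -0.0719 to 0.0803 with 1 left out. With 1 left out, the interaction was -0.0762 to 0.535 for Cebpa and -0.404 to 0.177 for Klf2. The cause of these changes was not tested.

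Over all genes, 314 passed between the genotypes unstimulated, 1721 with DESeq2, 664 with the term for lowest totals, 1353 in the fit of all 12 libraries and 7 (without WT replicate 2) to 522 with 1 left out; after LPS 2481 passed, and 867 to 2245 with 1 left out. For the interaction 31 passed, 334 with DESeq2, 11 with limma-voom, 18 with length and GC offsets, 69 with the term for lowest totals, 256 with block and offsets and 2 to 41 with 1 left out. Upper-quartile scaling moved the median of all genes with LPS from -0.02 to -0.23 in WT and from -0.03 to -0.17 in ACAT1 KO, and the share of calls that were higher from 51.1% to 35.2%, from 48.5% to 37.4% and, for the interaction, from 25.8% to 43.5%. Same-numbered WT and ACAT1 KO libraries correlated at -0.105 to 0.548 and not each best with its own number, so between genotypes only the number is known to be shared. With the replicate block 151 genes passed unstimulated and 2230 after LPS, and Klf4 was -0.90 (adjusted p = 0.0239) after LPS. The block called Cebpa with LPS in ACAT1 KO and changed no other member's call with LPS. The spread between libraries was wider unstimulated (biological coefficient of variation 0.285) than after LPS (0.108).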
